A study of Mus musculus with 3 samples.

Results

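Plasma cells were followed in single-cell RNA sequencing of T cell-depleted mouse spleen. They were chosen from their own RNA: a barcode had to hold 3 or more unique molecular identifiers (UMIs, 1 per captured RNA molecule) of Jchain, 3 or more summed over Sdc1, Tnfrsf17, Prdm1, Derl3 and Txndc5, and 0 of the T cell gene Cd3e, the myeloid gene Lyz2, the NK cell gene Nkg7 and the plasmacytoid dendritic cell gene Siglech. Kept cells had over 200 and under 3500 genes detected, under 15% mitochondrial UMIs and a top hashtag at least 3 times the second. Of 47453 kept cells, 438 met the rule.

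The 3 libraries, all from spleens of mice aged 12 to 14 weeks, each pooled conditions of 3 mice that carried antibody hashtags. The C57BL/6 control library held male sham-implanted mice and female mice, as its label states, while the study's text speaks of female animals. The C57BL/6 Ang II library held mice implanted at 10 weeks of age with pumps that release angiotensin II for 2 weeks (490 ug/kg/min as the label writes it), given either placebo or 2-HOBA, a scavenger of isolevuglandins. The B6.SLE123 library held mice of a lupus-prone congenic strain on the C57BL/6 background, given placebo or 2-HOBA for 6 weeks from 7 weeks of age. Magnetic beads against CD3 had removed T cells from every pool, and all libraries used the same 5′ chemistry. No label tied a hashtag to a condition, to a sex or to 1 mouse, so the 6 hashtag populations of each library are given side by side, and 2-HOBA was not compared with placebo. With 1 library per group there was no replicate and no test. All intervals are exact 95% intervals that cover counting error only, and strain, treatment, sex, pump implantation and library cannot be told apart.

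Plasma cells are the antibody-secreting end stage of the B cell lineage. The factors Blimp-1 (Prdm1), XBP1 and IRF4 drive the switch, in which B cell genes such as Pax5 are shut off and the endoplasmic reticulum (ER) expands to fold and export immunoglobulin. In the spleen some arise early from extrafollicular or marginal zone responses and mostly secrete IgM, while others leave germinal centres with switched heavy chains, and in lupus such cells are a source of autoantibody.

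The libraries held between 16062 and 20691 barcodes and between 44146350 and 63516694 gene UMIs. Plasma cells were deep, with a median of 9302 UMIs in the control, 11009 in the Ang II and 9810 in the B6.SLE123 library, against 1792, 2771 and 1956 over all kept cells. Between 415 and 496 barcodes were shared by each pair of libraries, and none of them was a plasma cell in both. Free RNA was read from neutrophils, which should lack Jchain. At least 1 Jchain UMI was found in 0.739% of 541 neutrophils of the control library at a median depth of 1194 UMIs. The Ang II library had 2.78% of 576 at 2266 UMIs, and the B6.SLE123 library 9.32% of 622 at 1885.5. At 3 or more UMIs there were 0, 0 and 2 such neutrophils.

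Plasma cells made up 2.10% of the B6.SLE123 library and were far fewer in both C57BL/6 libraries. They numbered 22 of 15957 kept cells in the control library, a share of 0.138% (0.0864 to 0.209). The Ang II library held 49 of 13982, a share of 0.350% (0.259 to 0.463), and the B6.SLE123 library 367 of 17514 (1.89 to 2.32). The B6.SLE123 share was 15.2-fold that of the control library (log2 ratio 3.93, 3.31 to 4.62) and the Ang II share 2.54-fold (1.35, 0.59 to 2.14). Without the upper limit on genes, 6, 18 and 53 more cells passed, for shares of 0.175%, 0.475% and 2.37%. When every cell was thinned to 1000 UMIs, 6, 10 and 67 cells still passed, and the ratios to the control were 10.6-fold and 1.86-fold.

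Plasma cells were unevenly spread over the hashtags of the control library. C0302 held 15 of its 22 plasma cells (68.2%) and had a share of 0.459% (0.257 to 0.756). The populations C0301, C0304, C0305 and C0306 held 2, 2, 2 and 1, and C0303 held 0 of 1902 cells, which allows a share of up to 0.158%. Without C0302 the control share was 0.0552%, and B6.SLE123 was 38.0-fold and Ang II 6.35-fold above it. Any value of the control plasma cells below is therefore mostly a value of 1 population. In the Ang II library the 6 populations C0301 to C0306 held 3, 6, 10, 15, 8 and 7 plasma cells, with shares from 0.138% to 0.587% and a median of 0.314%. In the B6.SLE123 library they held 35, 87, 94, 60, 64 and 27, with shares of 1.19%, 3.09%, 2.84%, 2.10%, 2.82% and 0.814%. All 6 B6.SLE123 populations were above all 12 C57BL/6 populations.

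**Figure D1:**
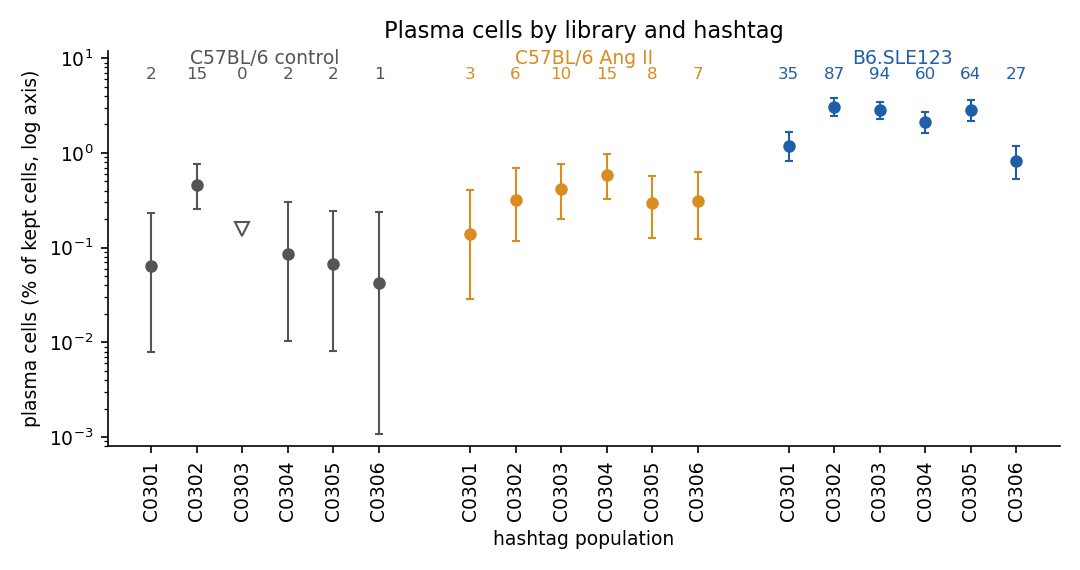
Share of kept cells that were plasma cells (percent, log axis) in each hashtag population of the 3 libraries, with exact 95% intervals of counting error and the number of plasma cells above each. The open triangle is the limit that 0 cells allow. The 6 B6.SLE123 populations lie between 0.814% and 3.09%, above every C57BL/6 population, and C0302 stands above the other control populations at 0.459%.

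The 6 genes of the rule are given as a description. The median plasma cell held 243, 173 and 180 Jchain UMIs (control, Ang II and B6.SLE123, an order kept throughout), and a summed 11, 13 and 9 of the other 5 genes. Close to the limits, 0, 3 and 10 cells were in with exactly 3 Jchain UMIs and 1, 0 and 11 were out with 2. For the 5-gene sum, 1, 3 and 48 cells were in with 3 UMIs and 12, 5 and 78 out with 2. A single UMI of an excluded gene kept out 2, 1 and 16. At the upper gene limit, 2, 7 and 43 cells were in with at least 3000 genes, and 3, 8 and 22 lay outside with up to 4000.

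A share of the cells that met the rule went against the name plasma cell. Immunoglobulin genes took a median of 45.1%, 42.9% and 44.5% of the UMIs of a cell in the 3 libraries, against 1.82%, 1.68% and 1.65% in B cells (cells with 2 or more UMIs each of Ms4a1 and Cd79a that did not meet the rule). The distribution had a lower mode, and 106 of the 438 cells were under 10% immunoglobulin. These 106 are called Ig-poor here and the other 332 Ig-rich. The limit was drawn after the values were seen and cuts a range, with 15 cells between 5% and 15%. There were 2 Ig-poor cells in the control (9.09% of the plasma cells), 15 in the Ang II (30.6%) and 89 in the B6.SLE123 library (24.3%). Ig-rich cells alone gave shares of 0.125%, 0.243% and 1.59% of kept cells, so that B6.SLE123 was 12.7-fold (log2 3.66, 3.01 to 4.40) and Ang II 1.94-fold (0.96, 0.12 to 1.83) the control.

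**Figure D2:**
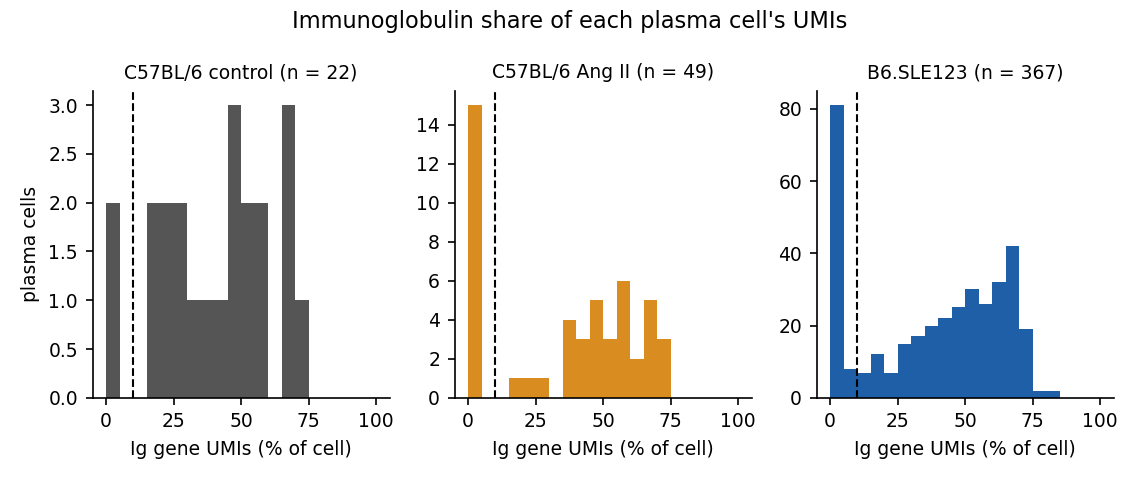
Number of plasma cells (vertical axis) by the percent of their UMIs that came from immunoglobulin genes (horizontal axis, 5-point bins) in the 3 libraries. The dashed line at 10% parts 106 Ig-poor from 332 Ig-rich cells, and the lower mode holds 15 of the 49 Ang II cells and 89 of the 367 from B6.SLE123.

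The Ig-poor cells carried B cell and germinal centre genes and few of the defining plasma cell genes. Sdc1, the surface proteoglycan CD138 by which plasma cells are sorted, was found in 1 of 106 Ig-poor and 183 of 332 Ig-rich cells. Tnfrsf17, the survival receptor BCMA, was found in 1 and 115, Prdm1 in 13 and 135, and Derl3, an ER degradation factor, in 34 and 268. Txndc5, an oxidoreductase of the ER that also belongs to the rule, was found in all 106 Ig-poor cells and in 321 Ig-rich cells. The median Jchain count was 8, 6 and 10 UMIs in Ig-poor and 259, 476.5 and 267 in Ig-rich cells of the 3 libraries. The Ig-poor cells thus lay nearer the Jchain limit. Of B cells, 0.518%, 0.391% and 4.26% had 3 or more Jchain UMIs. Levels here are CPM, the UMIs of a gene summed over cells and scaled to 1000000 UMIs outside immunoglobulin genes and Jchain. Xbp1 stood at 310.1 CPM in Ig-poor and 3445 in Ig-rich cells, and Fkbp11, an ER prolyl isomerase of secretory cells, at 0 and 669 CPM.

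Genes of the B cell stage ran the other way. Ms4a1, which encodes CD20, stood at 1016 CPM in Ig-poor and 175 CPM in Ig-rich cells, against 1424 in B cells, and Pax5, the B cell identity factor, at 141, 16.3 and 261. Bcl6, the germinal centre repressor, stood at 95.8, 5.43 and 41.2 CPM, and the germinal centre genes Gcsam at 282, 4.22 and 12.2 and S1pr2 at 180, 7.24 and 9.54. Mki67, a proliferation marker, stood at 832, 235 and 54.9 CPM. The split was drawn from the RNA of the same cells, so these are descriptions. Values below are for all 438 cells unless Ig-rich is written. An Ig-rich value is added for some of them, and its absence does not mean that it is the same.

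Markers of other cell types were mostly at low levels in the plasma cells, in part because the rule required 0 UMIs of Cd3e, Lyz2, Nkg7 and Siglech. The T cell genes Cd3d, Cd3g, Trac and Trbc2 summed to 0, 2 and 31 UMIs in the control, Ang II and B6.SLE123 plasma cells, with Cd3d and Trbc2 at 0 in each. That is 0, 5.88 and 14.97 CPM against 13.7, 94.0 and 9.33 in the other kept cells, so the B6.SLE123 plasma cells were above the other cells of their library, though Ig-rich cells were at 3.73. The basophil proteases Mcpt8 and Prss34 were at 0 in each. The neutrophil genes S100a8, S100a9, Ngp and Camp summed to 40.4, 70.5 and 111 CPM, against 13807, 27611 and 22705 CPM in the other kept cells. Of the monocyte and macrophage genes, C1qa was at 0 and nearly all counts were Cst3, for a sum of 848, 799 and 816 CPM against 1933, 1309.7 and 2012 in the other kept cells, and 955, 1143 and 1161 in Ig-rich cells. The plasmacytoid dendritic cell genes summed to 40.4, 11.8 and 9.18 CPM against 41.0, 29.6 and 22.8, from 5, 4 and 19 UMIs.

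Most genes of the secretory apparatus were higher in the plasma cells of all 3 libraries than in the other cells. Against the other kept cells of their own library, 583 of 5664 genes with at least 50 UMIs (10.3%) were at least 2-fold higher in all 3 libraries, and 178 (3.14%) at least 2-fold lower. Over 4109 genes measured in Ig-rich cells it was 594 (14.5%) and 184 (4.48%). The median log2 ratio of all 5664 genes was 0.12. These ratios describe cells that were chosen by their RNA and are no test. Scaled to all gene UMIs, of which immunoglobulin takes a large part in these cells, the median was -0.74 and the counts were 242 higher and 1140 lower, so a difference is read here relative to the RNA outside immunoglobulin.

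Most identity genes outside the rule were higher, 19 of the 23 measured by at least 2-fold in all 3 libraries. Their median log2 ratio was 3.67, or 4.05 in Ig-rich cells. Xbp1 stood at 2414 CPM in the control, 1978 in the Ang II and 2419 in the B6.SLE123 plasma cells, against 76.3, 82.1 and 108 CPM in the other kept cells. Irf4 stood at 258, 262 and 225 CPM against 44.4, 50.5 and 37.0. Mzb1, an ER cochaperone of antibody assembly, was 4.29, 4.03 and 3.54 log2 units higher. Tent5c, a poly(A) polymerase that stabilises secretory messages, stood at 436, 553 and 481 CPM against 2.62, 4.87 and 15.6. Cd9, a tetraspanin on the same list, did not share the pattern and was at log2 ratios of -0.72, -0.65 and -0.51.

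Translocation into the ER, the first step of secretion, was represented by 20 genes, of which 16 were at least 2-fold higher in all 3 libraries (median log2 ratio 2.42). Ssr4, a subunit of the translocon-associated complex, was 4.05, 4.07 and 3.65 log2 units higher in the 3 libraries. Sec61b, of the channel itself, was 2.59, 2.38 and 2.24 higher, and Sec11c, of the signal peptidase, 3.25, 3.16 and 3.09. The 4 genes short of 2-fold somewhere were Sec62, Ssr1, Sec11a and Srp14. In Ig-rich cells 18 of the 20 were past 2-fold, with a median of 2.84.

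All 18 genes of N-glycosylation and ER-associated degradation were at least 2-fold higher in the 3 libraries. The median was 2.39, or 2.83 in Ig-rich cells. Edem1, a lectin that delivers misfolded glycoproteins for degradation, stood at 929, 1111 and 1182 CPM against 46.1, 44.4 and 52.0 in the other kept cells. Ddost, of the oligosaccharyltransferase, was 2.67, 2.83 and 2.94 log2 units higher. Of 17 genes of transport between ER and Golgi, 15 were past 2-fold in all 3 libraries. Their median was 1.93, or 2.44 in Ig-rich cells. Lman1, a cargo receptor, was 4.18, 3.83 and 3.71 log2 units higher.

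Folding genes were likewise high, 20 of 23 at least 2-fold higher in all 3 libraries with a median log2 ratio of 2.63. In Ig-rich cells it was 21 of 23, with a median of 3.14. Hspa5, the chaperone BiP that holds unassembled heavy chains, stood at 2220.5, 2319 and 2665 CPM against 325, 342 and 413 CPM in the other kept cells. Hsp90b1, the ER member of the HSP90 family, was 3.94, 3.86 and 3.60 log2 units higher. Pdia6, a disulfide isomerase, was 3.03, 2.59 and 2.53 higher, and Creld2, an ER stress-induced disulfide isomerase, 5.50, 5.24 and 4.81. Canx, Ero1b (listed as Ero1lb) and Ero1a (listed as Ero1l) did not reach 2-fold in every library.

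Several of these genes share a promoter element, the ER stress response element (ERSE) to which ATF6 binds together with NF-Y. The letters CCAAT, 9 bases of any kind and CCACG were searched on both strands of the 250 bases before each start in RefSeq, build GRCm38.p6, and were found in 37 of 32851 promoters (0.113%). Of the 21 folding genes with a promoter in the table, 8 held a match, namely Hspa5, Hsp90b1, Pdia6, Calr, Canx, Dnajc3, Creld2 and Ero1b. Of these 8, 6 were at least 2-fold higher in the plasma cells of all 3 libraries, while Canx (1.13, 0.78 and 0.70) and Ero1b (0.86, 1.44 and 0.88) were not. Over all folding genes it was 20 of 23, so genes with a match were not more often higher. Of 16 glycosylation and degradation genes with a promoter, Syvn1 held a match. The lists of translocation, ER to Golgi transport, plasma cell identity, unfolded protein response and B cell identity had 0 matches in 15, 13, 16, 11 and 17 genes with a promoter. The list counts are of genes with any matching promoter, while the 0.113% is a share of promoters, so the units differ. A match describes letters in a window and says nothing of binding in these cells. The 4 folding genes just described and Derl3, a gene of the rule, are printed to show the element within its surroundings, 5′ to 3′ along the strand of the gene, with the matches in capitals. They lie at chr2:34771840-34772089 on the plus strand (Hspa5), chr10:86705445-86705694 on the minus strand (Hsp90b1, with 2 matches on opposite strands), chr12:17266339-17266588 on the plus strand (Pdia6), chr15:88819396-88819645 on the plus strand (Creld2, match on the other strand) and chr10:75893148-75893397 on the plus strand (Derl3, match on the other strand).
Hspa5: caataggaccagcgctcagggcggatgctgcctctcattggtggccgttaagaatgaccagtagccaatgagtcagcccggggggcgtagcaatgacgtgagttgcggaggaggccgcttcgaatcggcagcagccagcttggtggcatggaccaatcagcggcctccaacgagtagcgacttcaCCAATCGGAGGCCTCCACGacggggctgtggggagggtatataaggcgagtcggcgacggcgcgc
Hsp90b1: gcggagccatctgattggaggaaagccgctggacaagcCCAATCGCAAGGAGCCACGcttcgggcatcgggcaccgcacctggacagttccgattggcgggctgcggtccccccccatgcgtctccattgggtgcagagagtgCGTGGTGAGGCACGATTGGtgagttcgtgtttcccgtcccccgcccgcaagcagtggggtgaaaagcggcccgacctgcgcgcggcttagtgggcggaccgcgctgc
Pdia6: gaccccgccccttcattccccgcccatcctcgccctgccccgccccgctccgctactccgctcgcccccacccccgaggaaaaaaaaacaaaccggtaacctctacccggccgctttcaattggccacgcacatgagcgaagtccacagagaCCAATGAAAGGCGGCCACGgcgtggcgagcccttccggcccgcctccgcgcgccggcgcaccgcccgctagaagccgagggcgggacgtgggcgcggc
Creld2: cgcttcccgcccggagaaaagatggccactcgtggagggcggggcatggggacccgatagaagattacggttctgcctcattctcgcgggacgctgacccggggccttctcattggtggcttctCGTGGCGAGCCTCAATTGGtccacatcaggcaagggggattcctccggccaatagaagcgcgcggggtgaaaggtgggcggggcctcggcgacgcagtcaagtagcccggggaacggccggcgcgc
Derl3: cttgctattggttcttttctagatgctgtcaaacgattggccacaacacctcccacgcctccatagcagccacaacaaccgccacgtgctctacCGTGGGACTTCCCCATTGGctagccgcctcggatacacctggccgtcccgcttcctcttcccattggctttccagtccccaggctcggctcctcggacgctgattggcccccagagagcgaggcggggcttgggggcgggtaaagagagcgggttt

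The sensors and factors of the unfolded protein response were higher in part, 5 of 10 by at least 2-fold in all 3 libraries (median 1.55), and 8 of 9 measured in Ig-rich cells. Ern1, which encodes the sensor IRE1 that splices Xbp1, stood at 56.5, 94.0 and 67.6 CPM in the control, Ang II and B6.SLE123 plasma cells against 8.65, 7.04 and 7.05 in the other kept cells. Ddit3, the death-linked factor CHOP, did not stand out, at log2 ratios of 0.79, 0.49 and -0.13. Of 10 genes of amino acid and sugar supply, 3 were past 2-fold in all libraries (median 0.63). They include Slc3a2, the heavy subunit of the large neutral amino acid transporter, at 509, 752 and 481 CPM against 53.9, 51.9 and 52.2.

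B cell identity genes were the group on the low side. Of 26 measured, 10 were at least 2-fold lower in all 3 libraries and 0 higher, with a median log2 ratio of -0.92, or -1.45 in Ig-rich cells. Pax5 stood at 48.4, 67.6 and 58.9 CPM in the control, Ang II and B6.SLE123 plasma cells against 278, 214 and 168 CPM in the other kept cells. Cr2, the complement receptor of mature B cells, stood at 16.1, 35.3 and 19.8 CPM against 404, 382 and 184. Cd79a, a signalling chain of the B cell receptor, was near its level elsewhere, at -0.51, -0.01 and -0.47. The surface antigen Cd52 was at 0.58, 0.22 and 0.24.

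**Figure D3:**
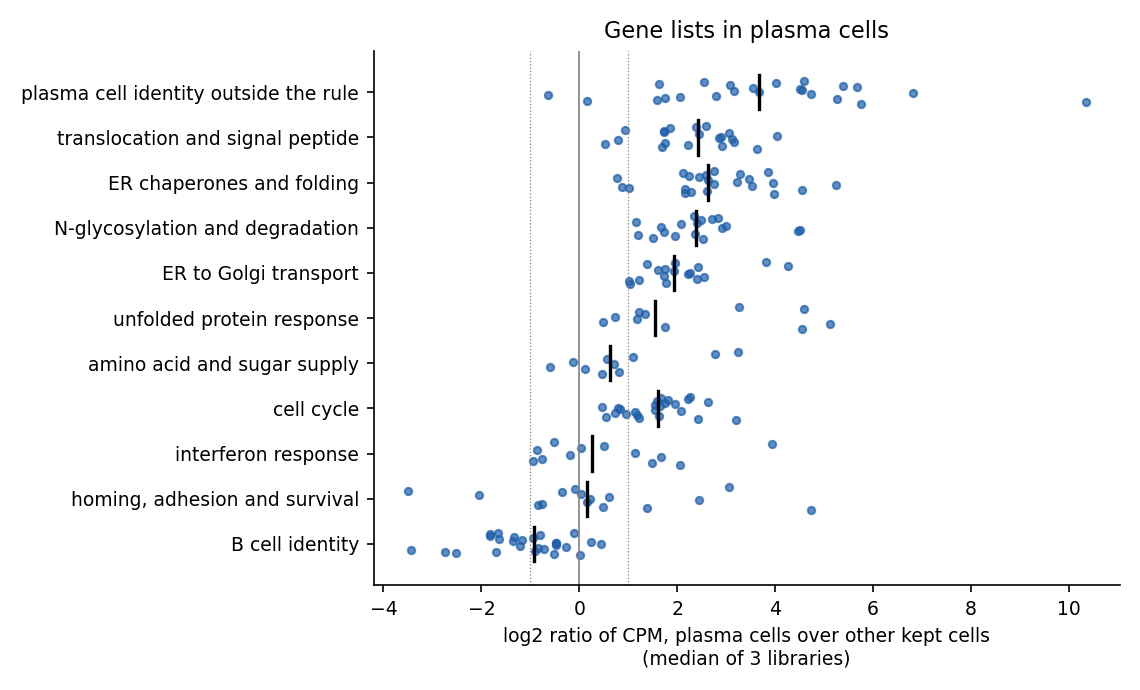
Log2 ratio of CPM in plasma cells over the other kept cells of the same library (horizontal axis, median of the 3 libraries) for each gene with at least 50 UMIs, by list. Black bars are list medians, solid and dotted lines are equality and 2-fold. The secretion lists have medians from 1.93 to 2.63 (by the median gene of each list), B cell identity lies at -0.92, and cell cycle genes at 1.61.

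The 15 genes that were most plasma cell-high, ranked by the lowest of their 3 log2 ratios, went beyond the lists. They were Eef1akmt3, Kcnmb4os2, Pycr1, Bhlha15, Pls1, Cpeb3, Pon3, B3gnt9, Gpx3, Chst1, Fkbp11, Tent5c, Hid1, Creld2 and Plpp5, with lowest ratios between 4.64 and 7.00. Eef1akmt3, a lysine methyltransferase of a translation elongation factor, stood at 32.3, 14.7 and 24.2 CPM in the control, Ang II and B6.SLE123 plasma cells against 0.144, 0.110 and 0.189. Pon3, a paraoxonase, stood at 218, 282 and 287 CPM against 2.85, 1.91 and 7.56. Bhlha15, the secretory cell factor MIST1, stood at 24.2, 49.96 and 56.0 CPM against 0.546, 0.417 and 1.04.

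Homing and survival genes showed no common direction, 4 of 15 at least 2-fold higher and 1 lower in all libraries (median 0.16). Cxcr3, the receptor for interferon-induced chemokines, stood at 48.4, 49.96 and 53.6 CPM against 3.997, 5.97 and 15.5, and Cd28, a survival receptor of long-lived plasma cells, at 32.3, 67.6 and 39.1 against 1.21, 5.22 and 1.41. Cxcr4, the receptor for the bone marrow chemokine CXCL12, was near its level elsewhere, at log2 ratios of -0.74, 0.01 and -0.08. S1pr1, the exit receptor for blood, was lower, at -2.41, -2.41 and -2.68, with Klf2, which drives S1pr1, at -5.18, -3.51 and -2.03.

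Cells in cycle were found among the plasma cells of every library. In the Ang II and B6.SLE123 libraries more of them were Ig-poor than Ig-rich. Cells with 3 or more summed UMIs of Mki67, Top2a, Birc5, Cdk1, Ccnb1, Ccnb2 and Ube2c were called cycling. They made up 2 of 22 in the control (9.09%), 10 of 49 in the Ang II (20.4%) and 110 of 367 in the B6.SLE123 library (29.97%, 25.3 to 34.9). Among Ig-rich cells the shares were 5%, 11.8% and 14.7%, from 1, 4 and 41 cycling cells. Of the 59 Ig-poor B6.SLE123 cells with no called heavy chain, 47 (79.7%) were cycling, against 14 of 125 Ig-rich Ighm cells (11.2%) and 26 of 145 Ig-rich switched cells (17.9%). Thinned to 2000 UMIs a cell, the control stayed at 2 of 22 (9.09%), with Ang II at 4 of 48 (8.33%). The thinned B6.SLE123 share was 17.9%. At that equal depth the Ang II share was thus not above the control share. Without the upper gene limit, which leaves out large cells, the Ang II and B6.SLE123 shares were 40.3% and 38.6%. In the cell cycle list, 12 of 24 genes were at least 2-fold higher than in the other kept cells of all libraries, but in Ig-rich cells 2 of 16, with a median of 0.14 that equals the median of all genes there.

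Heavy chain isotypes differed between the libraries. A heavy chain was called where 1 constant gene had at least 10 UMIs and 3 times the next. In the control library 18 of 22 called cells used Ighm (IgM), 2 Ighg2b, 1 Ighg2c and 1 Ighg3, so 4 were class-switched (18.2%, 5.19 to 40.3). In the Ang II library 36 of 43 used Ighm, 5 Ighg2c and 2 Ighg2b, so 7 were switched (16.3%, 6.81 to 30.7). In the B6.SLE123 library 144 of 300 used Ighm and 156 were switched (52.0%, 46.2 to 57.8). Ighg2c, the IgG2c of C57BL/6 mice that interferon gamma favours, was the most frequent switched isotype with 87 cells, followed by Ighg2b with 20, Ighg1 with 19, Ighg3 with 18, Igha with 11 and Ighe with 1. No cell was called Ighd. In the B6.SLE123 library 67 cells had no call, 59 of them Ig-poor, and among Ig-rich cells the switched shares were 20%, 20.6% and 53.7%.

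Switching was uneven over the B6.SLE123 hashtags. Of called cells, 10% of 30 in C0301, 57.9% of 76 in C0302, 50% of 84 in C0303, 68.2% of 44 in C0304, 68.2% of 44 in C0305 and 31.8% of 22 in C0306 were switched. The C0301 and C0306 populations, which had the lowest plasma cell shares, were also the lowest here. All switched cells of those populations used Ighg2c, 3 in C0301 and 7 in C0306. Of the 11 Igha cells, 7 were in C0305.

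**Figure D4:**
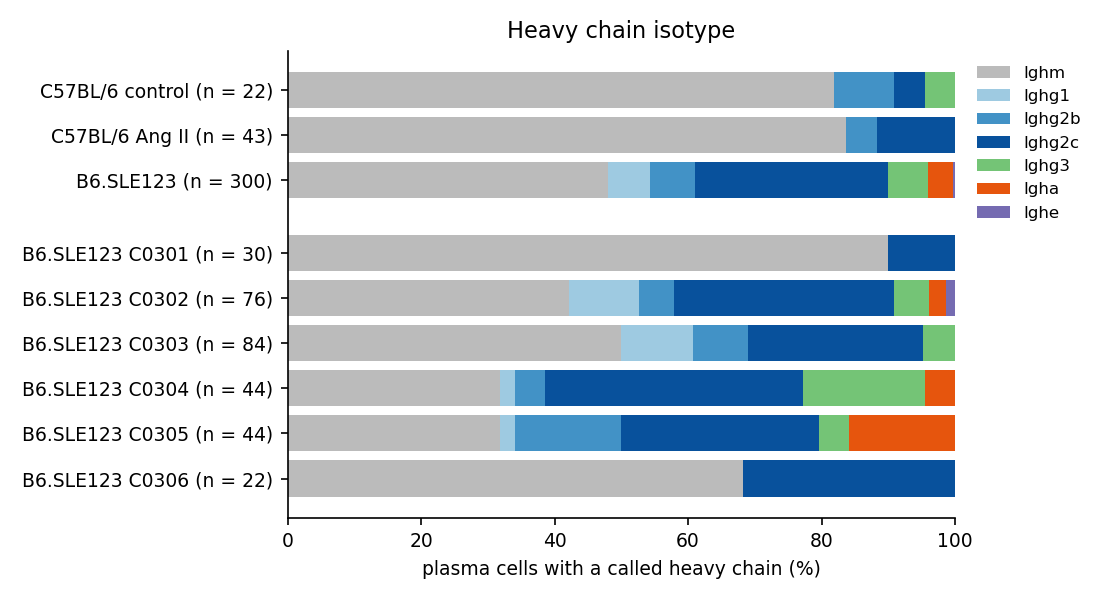
Heavy chain isotype of plasma cells with a call (percent of called cells, n in brackets) in the 3 libraries and in each B6.SLE123 hashtag population. Ighm makes up 81.8% of calls in the control bar, 83.7% in the Ang II bar and 48% in the B6.SLE123 bar, and between 31.8% and 90% within B6.SLE123 populations.

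Light chains were mostly kappa. Of cells with a call, lambda was used by 2 of 17 in the control (11.8%, 1.46 to 36.4), 7 of 34 in the Ang II (20.6%, 8.70 to 37.9) and 13 of 237 in the B6.SLE123 library (5.49%, 2.95 to 9.20). No light chain was called in 5, 15 and 130 cells. Among Ig-rich cells the lambda shares were 12.5%, 13.3% and 3.18%.

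Variable segments recurred in pairs in the B6.SLE123 library. A segment was called at 5 or more UMIs and 3 times the next. Of 256 B6.SLE123 cells with a heavy and a light segment and an isotype, 85 (33.2%) shared their pair of segments with another cell of the same hashtag, in 30 pairs. All 20 such control cells and all 41 such Ang II cells had pairs of their own. The number of pairs that recur depends on the number of cells, and junction sequences were not used here, so a shared pair is not a clone. The largest set was 8 cells of C0303 with Ighv4-1 and Igkv6-23, of which 3 used Ighm, 2 Ighg2c, 2 Ighg3 and 1 Ighg1. In C0302, 7 cells shared Ighv11-2 and Igkv14-126, a pair known from B-1a cells that bind phosphatidylcholine, and all 7 used Ighm. In the same population 4 cells with Ighv3-8 and Igkv19-93 all used Ighg2c. Ighv1-83 with Igkv2-109 was found in 5 cells of C0305 and 3 of C0303.

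Gene ratios of B6.SLE123 over control plasma cells rest on 22 control cells, 15 of them from 1 hashtag. Of 5138 genes with at least 50 UMIs over both libraries, 697 (13.6%) were at least 2-fold higher and 154 (3%) at least 2-fold lower in the B6.SLE123 library. The excess of higher genes did not hold without the population with the most plasma cells in each library, where 404 were higher and 460 lower, and with genes from 20 UMIs 482 were lower. In Ig-rich cells it was 447 (12.3%) and 93 (2.57%) of 3625. A UMI was worth 8.07 CPM in the control plasma cells, 2.94 in the Ang II and 0.483 in the B6.SLE123 plasma cells, so low control counts carry wide intervals. Of UMIs outside immunoglobulin genes and Jchain, B6.SLE123 plasma cells held 2070399 and control cells 123845, so genes could pass the minimum through B6.SLE123 alone. How many unchanged genes counting error alone puts past 2-fold was not set beside these counts. The median log2 ratio of all genes was 0.15.

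Few genes of the secretory groups passed 2-fold between B6.SLE123 and control. Of the folding genes 0 of 23 were past 2-fold in either direction (median log2 ratio 0.02, or 0.30 in Ig-rich cells). Of the glycosylation and degradation genes it was 0 of 18 (0.05), or 1 higher in Ig-rich cells (0.34). Translocation genes had 1 of 20 higher, Ssr1 at 88.8 CPM in the control and 186 in the B6.SLE123 cells. Transport genes had 2 of 17 higher, namely Kdelr1, a retrieval receptor, at 145 and 319 CPM, and Sec24d, a coat subunit, at 40.4 and 96.6. Of the identity genes 2 of 22 were higher and 1 lower, or 4 and 1 in Ig-rich cells. In Ig-rich cells 3 of 17 transport genes were higher. Medians there were 0.29 for translocation, 0.40 for transport and 0.31 for identity, above the 0.12 of all genes. Cell cycle genes had 11 of 24 higher (median 0.97), or 6 of 16 in Ig-rich cells (0.52), and Mki67 stood at 153 CPM in the control, 212 in the Ang II and 497 in the B6.SLE123 cells.

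Prg2 had the lowest ratio. It encodes the major basic protein of eosinophil granules and is known as a plasma cell transcript in mice. It lies at chr2:84980461-84983632 on the plus strand of GRCm38. Prg2 stood at 1502 CPM in the control, 1205 in the Ang II and 69.6 in the B6.SLE123 plasma cells, and was found in 14 of 22, 26 of 49 and 65 of 367 of them. The log2 ratio of B6.SLE123 over control was -4.43 (-4.76 to -4.11), -4.03 in Ig-rich cells, and -6.60 without the population with the most plasma cells in each library. Among Ig-rich cells the hashtag populations spanned 499 to 14398 CPM in the control library (5 populations with cells, median 1792), 476.3 to 5339 in the Ang II library (median 2094) and 51.8 to 210 in the B6.SLE123 library (median 95.5). The control populations C0301, C0302, C0304, C0305 and C0306 held only 2, 13, 2, 2 and 1 Ig-rich cells. Prg2 was named as the lowest-ranked gene, and the share of all genes with populations this far apart was not counted. No Ig-poor cell and no neutrophil held a Prg2 UMI. In the other kept cells Prg2 stood at 1.15, 0.175 and 15.3 CPM, the last from 25 B6.SLE123 cells.

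Ly6c2, a surface antigen best known from monocytes and an interferon-responsive gene, ran the other way. Ly6c2 lies at chr15:75108158-75111970 on the minus strand of GRCm38. It stood at 137 CPM in the control, 652 in the Ang II and 977 in the B6.SLE123 plasma cells. It was found in 9 of 22, 20 of 49 and 178 of 367 of them, so the shares of cells differed less than the CPM. B6.SLE123 stood 2.83 log2 units above control and Ang II 2.25 (1.54 to 3.05), or 3.23 (2.55 to 4.01) and 2.70 in Ig-rich cells. The Ig-rich hashtag populations overlapped, with 0 to 694 CPM in the control (median 232.5), 126 to 2001 in the Ang II (median 702) and 607 to 2590.1 in the B6.SLE123 library (median 1187). Without the population with the most plasma cells in each library, which leaves 7 control cells, the log2 ratios were 1.04 and 0.28. Neutrophils also held Ly6c2, at 803, 993 and 1375 CPM, while the summed neutrophil markers given above were 40.4 to 111 CPM in the plasma cells, and the part of neutrophil RNA was not tested.

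Gzma, the protease granzyme A of killer cells, was found in 78 of 367 B6.SLE123 plasma cells (21.3%, 17.2 to 25.8), in 1 of 22 control and in 0 of 49 Ang II plasma cells. Gzma lies at chr13:113093825-113100981 on the minus strand of GRCm38. It stood at 8.07, 0 and 89.8 CPM over the 3 libraries, and at 138 CPM in Ig-rich B6.SLE123 cells. Its log2 ratio of B6.SLE123 over control was 3.48 (0.98 to 8.79), from 1 control UMI. Every B6.SLE123 hashtag population had it, between 56.9 and 269.7 CPM among Ig-rich cells with a median of 75.9. B cells, at lower depth, had a Gzma UMI in 0.940%, 1.06% and 0.817% of cells. All members had 0 UMIs of the NK cell gene Nkg7 by the rule. Of other NK and killer cell genes, Ncr1 was found in 3 of the 78 cells with Gzma and 0 of the 289 without, Prf1 in 4 and 3, Ccl5 in 5 and 10, and Klrb1c and Klre1 in 0 of either. Prf1, Ccl5 and Ncr1 were thus more frequent in the cells with Gzma, on few cells, and the part of killer cell RNA was not tested. Gzma was found in 35 of 144 Ighm cells (24.3%), 41 of 156 switched cells (26.3%) and 1 of 89 Ig-poor cells.

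Klf2, a quiescence and trafficking factor, was found in 97 of the 367 B6.SLE123 plasma cells, in 6 of 49 with Ang II and in 1 of 22 controls. Klf2 stood at 16.1, 58.8 and 147 CPM, with a log2 ratio of B6.SLE123 over control of 3.19 (1.32 to 6.24) from 2 control UMIs. The integrin chain Itgb7 stood at 16.1, 29.4 and 49.7 CPM, at a ratio of 1.62 (-0.27 to 4.69) that spans 0. Bcl2, a survival gene, stood at 113, 49.96 and 24.2 CPM, at a ratio of -2.23 (-3.10 to -1.26), and -3.75 without the population with the most plasma cells in each library. Fcgr2b, the inhibitory Fc receptor, was at -2.26 (-3.14 to -1.28), with 14 control UMIs for each of these 2 genes. Cxcr3 was at 0.15 (-1.02 to 1.62). In Ig-rich C57BL/6 cells Bcl2 was found in Ighm cells alone. It had 14 UMIs in 16 Ighm and 0 in 4 switched control cells. With Ang II it had 16 UMIs in 27 Ighm and 0 in 7 switched cells. The libraries differed in isotype, and the part of isotype in the Bcl2 ratio was not tested.

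Of 11 interferon-responsive list genes with enough UMIs, 3 were at least 2-fold higher in B6.SLE123 than in control plasma cells and 0 lower (median log2 ratio 0.41), beside 13.6% higher over all genes. In Ig-rich cells it was 5 of 10 (0.81), beside 12.3%. Bst2, the tetherin that holds virions at the membrane, stood at 178 CPM in the control, 194 in the Ang II and 522 in the B6.SLE123 plasma cells, a ratio of 1.55 (0.95 to 2.23). Its 6 B6.SLE123 populations ranged from 342 to 692 CPM and the control populations from 0 to 698. Isg15, a ubiquitin-like antiviral protein, was at 1.23 (-0.02 to 2.87). Ly6a (Sca-1) was lower in value, at 2422 and 1539 CPM in control and B6.SLE123. Ifit1, Ifit2, Ifit3 and Rsad2 had between 1 and 6 UMIs in all plasma cells and were not measurable at this depth.

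Several genes at the top of the ranking were also apart in B cells. Ifitm2, an interferon-induced membrane protein, had 0 UMIs in the control, 1 in the Ang II and 4492 in the B6.SLE123 plasma cells, at least 89.6-fold higher than the control when its 0 is set to a floor of 3 counts. Ifitm2 also stood at 6.85, 4.002 and 3627 CPM in B cells. Ftl1-ps1, a ferritin pseudogene whose reads can be split with Ftl1, stood at 8.07, 149.9 and 876 CPM in plasma cells and at 16.6, 37.6 and 359.6 in B cells. Gm42031 stood at 40.4, 170.5 and 536 CPM, and at 44.9, 179 and 311 in B cells. In B cells too, B6.SLE123 had the highest of the 3 values for these genes.

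**Figure D5:**
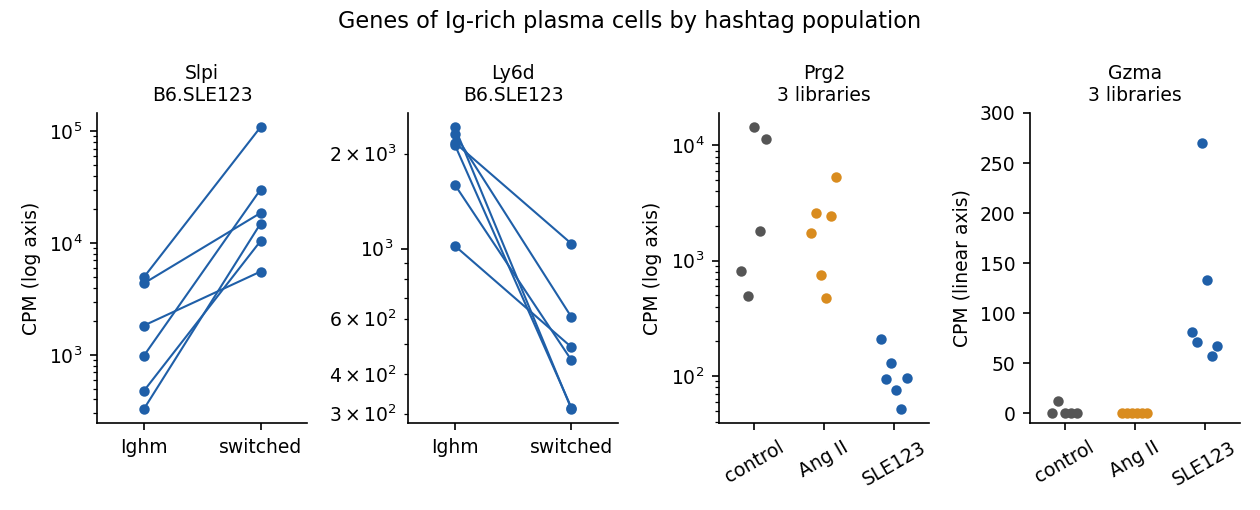
CPM in Ig-rich plasma cells by hashtag population. The first 2 panels join Ighm and switched cells of the same B6.SLE123 population for Slpi and Ly6d (log axis), and the last 2 show Prg2 (log axis) and Gzma (linear axis) in the 3 libraries. Slpi is higher and Ly6d lower in switched cells of all 6 populations, Prg2 lies at 51.8 to 210 in B6.SLE123 and 476.3 or more in the C57BL/6 libraries, and Gzma lies at 56.9 to 269.7 in B6.SLE123.

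The Ang II and control plasma cells could be compared in fewer genes, since the 49 and 22 cells left only abundant genes with enough UMIs. Of 1357 genes with at least 50 UMIs over both libraries, 62 (4.57%) were at least 2-fold higher and 18 (1.33%) lower, and with TMM factors (edgeR) 43 and 28, and scaled to all gene UMIs 48 and 26. From 20 UMIs it was 408 and 92, so the counts depend on the minimum and are not comparable with those of B6.SLE123. In Ig-rich cells it was 37 (4.18%) and 15 (1.69%) of 886. The secretory lists had 1 gene past 2-fold, Sec24d, at 40.4 CPM in control and 144 in Ang II cells. In Ig-rich cells 1 of 19 translocation genes and 2 of 13 transport genes were at least 2-fold higher. Slpi, a secreted inhibitor of leukocyte proteases, stood at 3906 CPM in Ang II cells against 11361 in control cells (log2 ratio -1.54, -1.65 to -1.43). In the control library 1 population, C0306, held 1 plasma cell and a Slpi level of 113229 CPM, and the other populations with cells ranged from 374 to 9217 CPM. Without C0302 of the control and C0304 of the Ang II library the log2 ratio was -4.24. Vpreb3, a B cell chaperone of light chains, was at -1.70 (-2.41 to -0.99). Anxa2, a membrane-binding annexin, was at 3.61 (1.70 to 6.68), from 2 control UMIs, and had 0 UMIs in the Ig-rich cells of both libraries. Apoe, the lipid carrier, stood at 1728 CPM in the control, from 5 cells, 2754 in the Ang II and 421 in the B6.SLE123 plasma cells.

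Switched and IgM plasma cells of the B6.SLE123 library were compared after their numbers had been seen. Among Ig-rich cells, 145 switched and 125 Ighm cells were set against each other over 3352 genes, of which 40 (1.19%) were at least 2-fold higher and 58 (1.73%) at least 2-fold lower in switched cells. A direction shared by all 6 hashtag populations was found for 92 higher (2.74%) and 109 lower genes (3.25%). Of these, 12 and 19 were past 2-fold. A population with UMIs in Ighm cells and none in switched cells counted as lower. How many genes counting error alone puts on the same side was not set beside these counts. Slpi, at chr2:164354070-164389095 on the minus strand of GRCm38, stood at 18936 CPM in switched and 2189 CPM in Ighm cells (log2 ratio 3.11, 3.03 to 3.199) and was found in 79 and 52 cells. Over the 6 populations Slpi ranged from 5557 to 108763 CPM in switched and from 328 to 4944 CPM in Ighm cells. C0301 held only 3 switched cells. The ratio was 2.51 without C0302. In the control library Slpi stood at 42906 CPM in 4 switched and 741 in 16 Ighm cells, and in the Ang II library at 11143 in 7 and 4338 in 27.

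The genes lower in switched cells of all 6 populations included Ly6d (chr15:74762056-74763620, minus strand), a B-lineage surface antigen, at 551 CPM in switched and 2028 in Ighm cells (-1.88, -2.05 to -1.71). Its populations ranged from 310.3 to 1037 CPM in switched and from 1022 to 2427 in Ighm cells. Rgcc, a cell cycle regulator, was at 97.9 and 449.98 CPM (-2.20), and Ggh, a folate hydrolase, at 10.7 and 198 CPM (-4.21). Selenop, a selenium carrier, was at -2.76 and Serpina3g, a protease inhibitor, at -2.78. Ggh, Selenop and Serpina3g had only 8, 17 and 9 UMIs in switched cells. Serpina3g was at 0 in switched cells of C0301, C0304, C0305 and C0306. Ighm cells of these populations had it at only 27.2, 22.7, 18.2 and 15.4 CPM. In the C57BL/6 libraries Ly6d stood at 1269 and 1428 CPM in switched and Ighm cells of the control and 118 and 2234 CPM of the Ang II library. Rgcc stood at 95.2 and 323 CPM in the control library, and at 50.4 and 294 with Ang II. Ighm cells were thus higher in value for both genes in all 3 libraries, on 4 and 7 switched C57BL/6 cells.

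Homing receptors were counted by isotype in the B6.SLE123 library. Cxcr3 was found in 16 of 144 Ighm cells (11.1%, 6.49 to 17.4), 18 of 87 Ighg2c cells (20.7%, 12.7 to 30.7), 6 of 19 Ighg1 cells (31.6%, 12.6 to 56.5) and 11 of 20 Ighg2b cells (55.0%, 31.5 to 76.9). Ighg3 had it in 4 of 18 cells (22.2%, 6.41 to 47.6) and Igha in 1 of 11 (9.09%, 0.230 to 41.3). Ccr10, a receptor that draws IgA plasma cells to mucosa, was found in 4 of 11 Igha cells (36.4%, 10.9 to 69.2) and 4 of 144 Ighm cells (2.78%, 0.762 to 6.96). Klf2 was found in 52 of 144 Ighm and 39 of 156 switched cells. These shares include Ig-poor cells, are at each cell's own depth and were not thinned.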

How the data were processed

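Spleen cells of 3 pooled libraries were sequenced with 10x Genomics 5′ v2 chemistry. The authors deposited unnormalized UMI counts of genes and hashtag antibodies from Cell Ranger 6.0.0 (file headers), with build mm10 per the submitters' processing notes. The aligner annotation is not given in the sources used here. Of 32285 genes and 6 hashtags, 32158 genes matched GENCODE vM21 (GRCm38) for positions. No column was left unused.

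Cells were kept and plasma cells chosen by the rule that opens the results. Hashtags removed doublets between hashtags, and no doublet caller was run. The members and gene lists were chosen with earlier results of these data known. Ig-rich and Ig-poor cells, and switched against Ighm cells, were set apart after the values were seen. Counts were summed per library and scaled to UMIs outside 392 immunoglobulin genes and Jchain (immunoglobulin genes and Jchain to all gene UMIs), since immunoglobulin takes a large part of the RNA of these cells. Ratios carry exact conditional Poisson intervals and shares exact Clopper-Pearson intervals at 95%. A count of 0 was set to a floor of 3 counts, per library. A gene past 2-fold had at least 50 UMIs. B cells had at least 2 UMIs each of Ms4a1 and Cd79a. Neutrophils had at least 20 summed UMIs of S100a8 and S100a9 and 0 of Cd79a. Thinning drew UMIs without replacement (seed 7).

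Genes were named where they belong to a list, were among the 10 highest or 10 lowest ratios between libraries, or were among the 15 with the highest lowest-of-3 ratio over the other kept cells. Immunoglobulin segments, Xist, Tsix, Y-linked genes and the 6 rule genes were left out of the ranking. Germinal centre genes, killer cell genes of the Gzma cells and genes of the switched comparison were chosen after their values were seen. Promoters came from a RefSeq table of GRCm38.p6, cut to the 250 bases before each start. The ratios and their intervals were run on simulated Poisson counts without variation between cells or hashtags. That run cannot show how the intervals hold where a few cells carry most UMIs of a gene. Python 3.11.15 with numpy 2.4.6, scipy 1.17.1, pandas 2.3.3 and matplotlib 3.10.9 was used, with edgeR 4.0.16 in R 4.3.3 for TMM factors alone. The alternatives tried are given at the end, and 1 other setting is not reported here.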

Additional observations from a re-analysis of the deposited data

Results flagged for a closer look

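The plasma cell share of hashtag C0302 in the C57BL/6 control library, 0.459% of kept cells, lay apart from the other 5 populations of that library, whose shares ran from 0 to 0.0850%. The gap to the nearest population was 0.815 of the whole range, above Dixon's 95% critical value for 6 values. Of 7 groups looked at this was the 1 that passed, and chance passes about 1 in 20 groups. The cause was not tested.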

How the results depend on the processing

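With 1 library per group no test was made, and alternatives are read by how far a value moved. No paired analysis was possible because each group is 1 library and no label ties a hashtag to a condition. The control values rest on 22 cells, and gene ratios against them are coarse at low counts. Over the alternatives for shares and counts of genes, 110 values stayed close to the main value and 48 did not. Over those for single genes, 26 moved, 2 turned direction and the rest stayed close. The cause of these shifts was not tested, apart from alternatives that by their construction use fewer cells or genes.

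The B6.SLE123 share of plasma cells was 2.37% without the upper gene limit (Ang II 0.475%), 1.84% with at least 10 Jchain UMIs, 1.46% with a marker sum of at least 6, 2.39% without the 4 excluded genes and 1.59% for Ig-rich cells (Ang II 0.243%). With each cell thinned to 1000 UMIs the shares were 0.0412%, 0.0764% and 0.437% for control, Ang II and B6.SLE123. With the study's limits read as total UMIs they were 0.0144%, 0.0206% and 0.101%, with log2 ratios over control of 2.81 (B6.SLE123) and 0.52 (Ang II). Leaving out each hashtag population in turn gave control shares of 0.0552% to 0.157%. The Ang II shares were 0.298% to 0.389%, with log2 ratios over control between 1.11 and 2.67. The B6.SLE123 shares were 1.905% to 2.395%, with ratios between 3.74 and 5.25. The upper end of both ratios came from leaving out control C0302.

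Without C0302, 0 of 7 control plasma cells were cycling. Thinned to 2000 UMIs, 2 of 22 control cells were cycling. The Ang II cycling share was 8.33% thinned to 2000 UMIs and 40.3% without the upper gene limit. The B6.SLE123 share was 17.9% thinned, 38.6% without that limit, 36.8% at 2 or more UMIs and 14.7% in Ig-rich cells. For B6.SLE123 over control, genes past 2-fold higher and lower were 404 and 460 without the population with the most plasma cells in each library, 447 and 93 in Ig-rich cells, and 258 and 44 in cells without UMIs of the 7 cycle genes. Lower genes numbered 482 from 20 UMIs and 1403 from 1 UMI. For Ang II over control the same settings gave 94 and 41 without those populations, 37 higher in Ig-rich cells, and 25 and 7 without cycle gene UMIs. It was 122 and 9 without the upper gene limit, 408 and 92 from 20 UMIs, 1217 and 1032 from 1 UMI, and 28 lower with TMM factors. Scaled to all gene UMIs, 242 genes were higher and 1140 lower than in the other kept cells. The log2 ratio of Prg2 for Ang II over control was -0.32, and turned to 0.13 in Ig-rich cells and 0.65 in cells without cycle gene UMIs. Ig-rich cells and cells without cycle gene UMIs were chosen as alternatives after seeing the data.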
